A study of Mus musculus with 12 samples.

Results

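The effect of CD200Fc on BV2 cells in normal glucose was measured in 6 of the series' 12 RNA sequencing libraries, chosen by their labels: 3 of cells in normal glucose medium (NG) and 3 of cells in normal glucose medium with CD200Fc at 50 ng/mL (NG+CD200Fc). BV2 is an immortalised mouse microglial line, so all groups come from 1 line and not from primary microglia. The remaining libraries are 3 of cells in high glucose medium (HG) and 3 in high glucose medium with CD200Fc. Glucose concentrations and treatment length are not stated in the labels, and no library is labelled as an Fc control. The treatment protocol attached to the samples describes sorting GFP-positive cells from mouse retina, whereas the source, cell line and title fields name cultured BV2; the libraries are called BV2 here after those fields. The labels do not state whether replicates were separate cultures. The p-values below therefore measure only the spread among the sequenced libraries, and that spread may be technical.

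CD200 is a membrane glycoprotein of neurons, endothelium and other cells, and its receptor CD200R1 is carried by microglia, macrophages and other myeloid cells. Unlike most inhibitory receptors, CD200R1 has no ITIM: it recruits the adaptor Dok2, which binds the Ras GTPase-activating protein Rasa1 and dampens Ras-ERK signalling, and in the brain and retina the pair is known for restraining microglial activation. CD200Fc joins the extracellular part of CD200 to an antibody Fc part, which can itself be bound by Fc gamma receptors.

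Sequencing depth was close between the groups. Total counts were 23934899 to 25304947 in the 3 NG libraries and 25020131 to 31905649 in the 3 NG+CD200Fc libraries, with 92.8% to 93.5% of counts in protein-coding genes and 0.0530% to 0.0599% in ribosomal RNA genes. All 10 markers of microglia and macrophages were tested, with a summed level of 4645 to 4935 CPM (counts scaled to each library's total, with TMM factors) in NG and 4418 to 4544 CPM in NG+CD200Fc. The photoreceptor genes Crx and Nrl, the pigment epithelium genes Rpe65, Tyr and Ttr, the astrocyte gene Aqp4 and the lymphocyte gene Ncr1 had 0 counts in all 6, which allows a level of up to 0.0192 CPM at 3 counts over the 6 libraries. Other genes of these marker lists were present: the summed level over the 6 libraries was 2259 to 2376 CPM for Muller glia and astrocytes (7 of 9 tested, mostly Vim), 137 to 149 CPM for pigment epithelium (2 of 6 tested, mostly Mitf) and 30.9 to 42.0 CPM for photoreceptors (4 of 9 tested, mostly Pde6b). It was 148 to 174 CPM for endothelium and mural cells (7 of 10 tested, mostly Vwf) and at most 15.3 CPM for neutrophils, neurons, oligodendrocytes and lymphocytes. In the high glucose part, HG replicate 2 held 1.49% ribosomal RNA counts against 0.0698% and 0.0788% in the other HG libraries.

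In normal glucose no gene differed between NG+CD200Fc and NG at an adjusted p under 0.05. The count was 0 of 19182 genes tested (0% called) with edgeR's quasi-likelihood test and Benjamini-Hochberg adjustment, and the smallest adjusted p was 0.816. An unadjusted p under 0.05 was seen for 1147 genes, 5.98% of those tested, of which 533 were higher and 614 lower with CD200Fc. DESeq2 also called 0 genes, with 1118 at an unadjusted p under 0.05, and limma voom with quality weights called 1 gene, Atp5k, with 2480. In the authors' deposited table of the same comparison, 0 of 15372 genes had an FDR under 0.05, the smallest FDR was 0.0751 and 928 genes (6.04%) had a p under 0.05.

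The estimates themselves were small. Over the 14269 genes with a mean of at least 1 CPM, the median absolute log2 fold change was 0.084, a factor of 1.06, and the middle 90% of genes lay between −0.30 and 0.27. The median signed log2 fold change of all genes tested was −0.00033, and 49.9% of estimates were above 0. At this level 250 genes (1.75%) had an estimate beyond 1.5-fold and 30 (0.210%) beyond 2-fold. Among the 9061 genes of at least 10 CPM the numbers were 24 and 5. The test statistics were spread more widely than a standard t, with an SD of 1.10 over all genes, and the excess grew with level. The SD was 1.01 below 1 CPM, 1.17 at 10 CPM and more and 1.24 at 100 CPM and more. In that highest class 8.32% of genes had an unadjusted p under 0.05 (edgeR). Libraries of different groups differed about as much as libraries of the same group: the median absolute log2 difference per gene was 0.104 to 0.123 for the 3 pairs within NG, 0.114 to 0.157 for the 3 pairs within NG+CD200Fc and 0.096 to 0.173 for the 9 pairs between them.

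**Figure D1:**
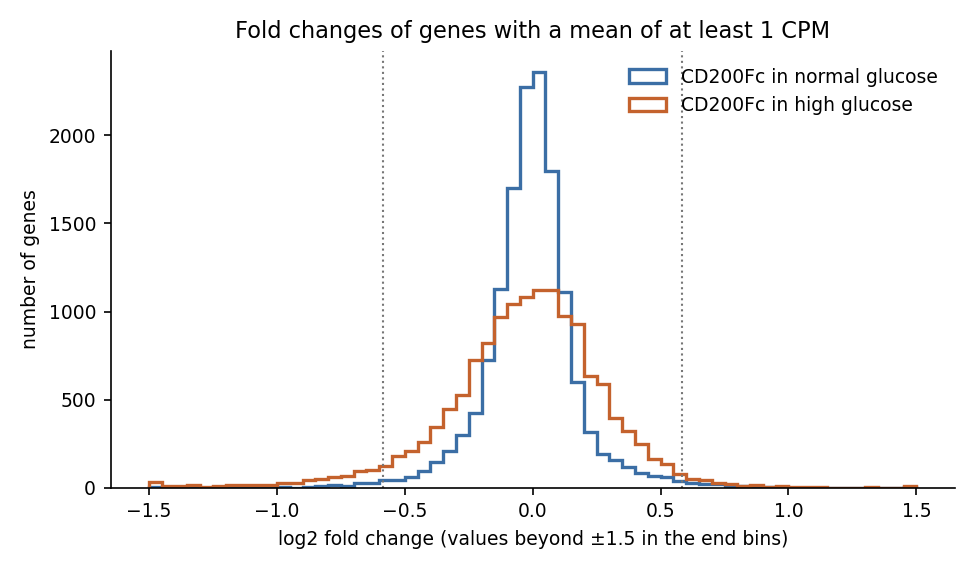
Number of genes by log2 fold change (x axis, bins of equal width; y axis, genes) for CD200Fc against no CD200Fc in normal glucose (blue) and in high glucose (orange), over the 14269 genes with a mean of at least 1 CPM in the 6 normal glucose libraries. Dotted lines mark 1.5-fold in each direction; the normal glucose estimates are narrower, with a median absolute value of 0.084 against 0.17 in high glucose.

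The sizes of change that these 6 libraries exclude depended on the level of the gene. A size is called excluded here when the gene's 95% confidence interval, from the edgeR model of all 12 libraries, lies inside that fold in both directions; the smallest size asked about is a 25% higher level or its reciprocal, called 25% below. Of all 19182 genes, 39.4% excluded a change of 25%, 56.9% excluded 1.5-fold and 71.6% excluded 2-fold. At 100 CPM and more (2439 genes) the shares were 91.7%, 98.4% and 99.3%, and at 10 to 100 CPM (6622 genes) they were 78.1%, 98.7% and 99.6%. At 1 to 10 CPM (5208 genes) they dropped to 2.73%, 37.9% and 84.6%. Below 1 CPM (4913 genes) no gene excluded a 25% change or 1.5-fold and 6.39% excluded 2-fold.

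Put as a fold per gene, the median gene excluded changes beyond 1.13-fold at 100 CPM and more, 1.18-fold at 10 to 100 CPM, 1.59-fold at 1 to 10 CPM and 2.99-fold below 1 CPM. For 9 in 10 genes the limit was at most 1.23-fold, 1.31-fold, 2.14-fold and 5.50-fold in the same 4 classes. These intervals are per gene. When they were widened by Bonferroni so as to cover all genes tested at once, 62.7% of the 9061 genes of at least 10 CPM still excluded 1.5-fold and 96.0% excluded 2-fold, while 1.82% excluded a 25% change. Among all genes of at least 1 CPM those shares were 39.8%, 65.1% and 1.16%.

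**Figure D2:**
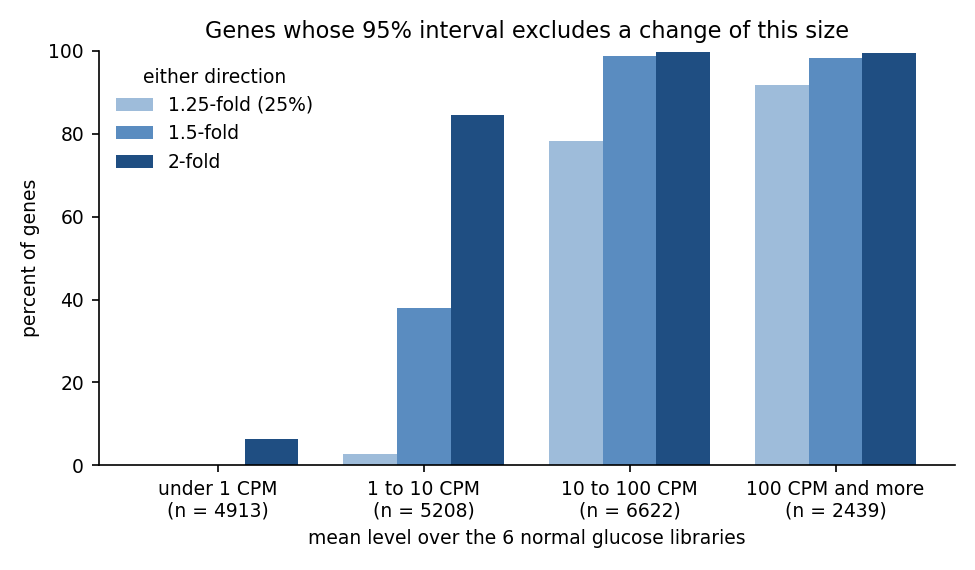
Percent of genes (y axis) whose 95% interval for CD200Fc against no CD200Fc in normal glucose excludes a change of 25%, 1.5-fold or 2-fold in either direction, by mean level over the 6 libraries (x axis, number of genes in brackets). From 10 CPM upwards at least 98.4% of genes exclude 1.5-fold, and below 1 CPM none do.

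No difference was detectable in the genes of the CD200 receptor and its adaptors. Of 12 list genes found in the table, 10 were tested, none had an unadjusted p under 0.05, and their median log2 fold change was 0.030. Their intervals excluded a 25% change for 8 genes, 1.5-fold for 9 and 2-fold for all 10. The ligand gene Cd200 had 0 counts in all 6 libraries, and Cd200r3, an activating relative of the receptor, had 6 counts over the 3 NG libraries and 14 over the 3 NG+CD200Fc libraries, so neither was tested.

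The receptor gene Cd200r1 (ENSMUSG00000022667, GRCm38 chromosome 16, 44765736 to 44794978, plus strand) stood at 12.7, 13.7 and 14.9 CPM in NG and at 11.2, 15.1 and 16.9 CPM in NG+CD200Fc. The lowest and the highest of the 6 values were both in CD200Fc libraries, so the groups overlapped. The log2 fold change was 0.07 ± 0.13 (SE, 3 against 3 libraries), and the interval ran from 0.87-fold to 1.26-fold. Its activating relative Cd200r4, which lies close by on chromosome 16 (44811733 to 44839150, plus strand), stood at 16.2, 21.3 and 21.5 CPM in NG and 19.1, 16.2 and 21.9 CPM with CD200Fc. Each group held 1 value of 16.2, and the interval was 0.82-fold to 1.15-fold. Cd200r2, near 1 CPM, had the widest interval of the list, with a log2 fold change of 0.11 and limits of −0.60 and 0.81. Reads from these closely related receptor genes may be divided between them by the counting.

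The adaptor gene Dok2 (ENSMUSG00000022102, chromosome 14, 70766036 to 70778495, plus strand) stood at 46.8, 43.9 and 45.4 CPM in NG and at 48.0, 45.5 and 49.0 CPM with CD200Fc. One CD200Fc library lay within the NG range, and the interval was 0.95-fold to 1.15-fold. The genes of its relatives Dok1 and Dok3 had log2 fold changes of 0.05 ± 0.08 and −0.09 ± 0.07. Rasa1, the Ras GTPase-activating protein that Dok2 recruits, stood at 64.1, 61.2 and 61.6 CPM in NG and 66.0, 60.0 and 61.9 CPM with CD200Fc. Its log2 fold change of 0.01 ± 0.07 was the smallest of the list. Inpp5d, the lipid phosphatase SHIP-1, stood at 201, 202 and 204 CPM in NG and at 211, 217 and 197 CPM with CD200Fc, with an interval of 0.95-fold to 1.11-fold. The SH2-SH3 adaptor genes Nck1 and Crkl had log2 fold changes of 0.02 and −0.05.

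**Figure D3:**
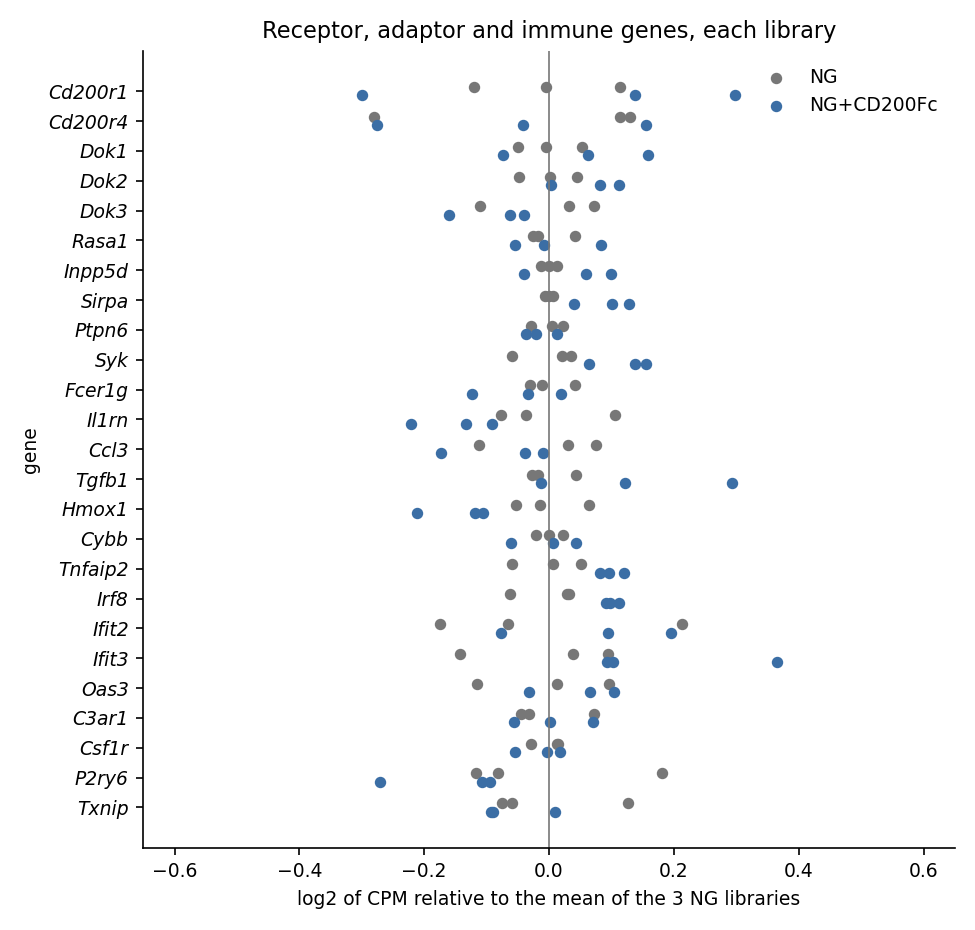
CPM of 25 genes of the CD200 receptor pathway and of immune function in each library (points; x axis, log2 relative to the mean of the 3 NG libraries), with NG in grey and NG+CD200Fc in blue. Points of both groups lie within 0.4 of that mean for each gene, and for Cd200r1, Cd200r4, Rasa1, Inpp5d, Ptpn6, Cybb and Csf1r the groups overlap.

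Other inhibitory receptors and the Fc receptors, which could meet the Fc part of the protein, also had no call. The list of other inhibitory myeloid receptors had 18 tested genes with a median log2 fold change of −0.0028, and 17 of the 18 excluded 1.5-fold. It also holds genes that are not inhibitory receptors, such as Ptpn6, Trem2 and Tyrobp. An unadjusted p under 0.05 was seen for 3 of the 18, against 5.98% of all genes (edgeR). These were Lilrb4a, higher, and Trem2 and Tyrobp, lower. Sirpa, the receptor of the CD47 signal, stood at 1071, 1066 and 1062 CPM in NG and at 1144, 1165 and 1096 CPM with CD200Fc. The 2 groups did not overlap, but the log2 fold change was 0.09 ± 0.05 and the unadjusted p was 0.081 (edgeR). Ptpn6, the phosphatase SHP-1 used by ITIM receptors, had a log2 fold change of −0.01 with limits of −0.12 and 0.09. Lilrb4a, an ITIM receptor, was at 0.17 ± 0.07 without overlap (unadjusted p = 0.028, edgeR), and Pirb, another one, at 0.23 ± 0.13.

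All 14 genes of the list of Fc gamma receptors and Syk were tested and all 14 excluded 1.5-fold; 13 excluded a 25% change. Their median log2 fold change was −0.024. At an unadjusted p under 0.05, 1 was higher and 1 lower, against 5.98% in either direction over all genes (edgeR). Syk, the kinase downstream of activating Fc receptors, stood at 353, 377 and 373 CPM in NG and 410, 405 and 385 CPM with CD200Fc. The groups did not overlap, with a log2 fold change of 0.12 ± 0.05 (unadjusted p = 0.024, edgeR). Fcer1g, the signalling chain shared by these receptors, was at −0.04 ± 0.06. The low-affinity receptor gene Fcgr3 was at −0.14 ± 0.08 with overlap. Trim21, a cytosolic antibody receptor, was at −0.25 ± 0.11 without overlap (unadjusted p = 0.033, edgeR).

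ERK feedback and immediate early genes, whose transcripts follow Ras-ERK activity, had no member of 31 tested with an unadjusted p under 0.05. Their median log2 fold change was −0.011, and 26 excluded 1.5-fold. Klf4, an immediate early transcription factor, stood at 11.7, 10.8 and 12.3 CPM in NG and 13.4, 15.4 and 12.2 CPM with CD200Fc, with overlap in 1 library. The ETS factor gene Etv4, a known ERK target, stood at 12.3, 10.8 and 10.8 CPM in NG and 11.3, 10.2 and 11.1 CPM with CD200Fc. Its log2 fold change was −0.05 with limits of −0.31 and 0.21. For Etv5 the value was 0.12 ± 0.09, for the stress-induced Ier5 it was −0.02 ± 0.06 and for the receptor gene Epha2 it was 0.02 ± 0.14.

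Inflammatory genes had no member past the adjusted threshold. The cytokine and chemokine list (22 of 31 tested) had a median log2 fold change of −0.081, and 14 of the 22 excluded 1.5-fold. It held 1 higher and 2 lower genes at an unadjusted p under 0.05, against 5.98% in either direction over all genes (edgeR). Among its 9 untested genes, Csf2 had 0 counts in all 6 libraries, Il12b had 1 count in each group and Cxcl1 had 0 and 5 counts.

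Ccl3, the chemokine MIP-1 alpha, stood at 406, 356 and 393 CPM in NG and at 382, 375 and 342 CPM with CD200Fc, with overlapping groups and a log2 fold change of −0.07 ± 0.06. Il1rn, the interleukin-1 receptor antagonist, stood at 409, 361 and 371 CPM in NG and at 357, 326 and 347 CPM with CD200Fc. All 3 CD200Fc values lay below all 3 NG values, with a log2 fold change of −0.15 ± 0.06 and an unadjusted p of 0.031 (edgeR; adjusted p at least 0.816, as for every gene). Tgfb1, an anti-inflammatory cytokine, was at 0.14 ± 0.07 with overlapping groups, and the chemokine Ccl12 at −0.25 ± 0.12.

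Of 24 inflammatory enzyme and inflammasome genes, 20 excluded 1.5-fold and the median log2 fold change was −0.037. At an unadjusted p under 0.05, 1 was higher and 2 lower, against 5.98% in either direction over all genes (edgeR). The NADPH oxidase subunit gene Cybb stood at 1135, 1119 and 1153 CPM in NG and at 1141, 1088 and 1170 CPM with CD200Fc, with limits of −0.10 and 0.10 on the log2 scale. Its partner Ncf1 was at −0.12 ± 0.06. Hmox1, heme oxygenase, stood at 212, 200 and 195 CPM in NG and 188, 186 and 175 CPM with CD200Fc, a log2 fold change of −0.14 ± 0.06 with no overlap. Mmp12, the macrophage elastase, stood at 17.7, 16.0 and 17.2 CPM in NG and 22.6, 19.6 and 19.7 CPM with CD200Fc, again without overlap, at 0.28 ± 0.10. The share of genes whose groups did not overlap was 11.9% over all genes tested (2278 genes, 1096 higher or 5.71%, and 1182 lower or 6.16%).

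The 36 genes of the NF-kB and Toll-like receptor pathway were all tested. Of these, 35 excluded 1.5-fold, 1 had an unadjusted p under 0.05 (edgeR) and the median log2 fold change was 0.015. Cd14, the co-receptor for lipopolysaccharide, was at −0.14 ± 0.07, Ikbkb, a kinase of the NF-kB inhibitor, at 0.13 ± 0.06, and the NF-kB target Tnfaip2 at 0.10 ± 0.05. The 20 tested antigen presentation genes had a median of −0.0088, 19 excluded 1.5-fold and 1 had an unadjusted p under 0.05 (edgeR). The immunoproteasome gene Psmb8 was at −0.23 ± 0.08 and the co-stimulatory ligand Cd86 at 0.18 ± 0.09.

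The interferon-stimulated genes, 47 of 47 tested, had a median log2 fold change of −0.019 and 1 member with an unadjusted p under 0.05, while 41 excluded 1.5-fold and 43 excluded 2-fold. Ifit2, which binds viral RNA, stood at 16.0, 12.2 and 13.2 CPM in NG and at 14.7, 13.1 and 15.8 CPM with CD200Fc. The NG values enclosed all 3 CD200Fc values, and the log2 limits were −0.16 and 0.32. Ifit3, its partner, stood at 11.4, 10.9 and 9.63 CPM in NG and 11.3, 11.4 and 13.7 CPM with CD200Fc, with an interval of 0.97-fold to 1.36-fold. Oas3, a sensor that activates RNase L, was at 0.05 ± 0.05, and the transcription factor Irf8 at 0.10 ± 0.06. Gbp2, an interferon-induced GTPase and the 1 member with an unadjusted p under 0.05, stood at 4.58, 4.07 and 5.44 CPM in NG and at 2.62, 3.06 and 3.48 CPM with CD200Fc. Its values did not overlap, and the log2 fold change was −0.62 ± 0.20 (unadjusted p = 0.0054, edgeR).

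Of 20 tested complement genes, 13 excluded 1.5-fold, and the median log2 fold change was 0.011. At an unadjusted p under 0.05, 1 was higher and 1 lower, against 5.98% in either direction over all genes (edgeR). C2, a classical pathway protease, stood at 0.381, 0.861 and 0.325 CPM in NG and at 1.03, 1.33 and 1.30 CPM with CD200Fc. This estimate was the highest of all the functional lists, at 1.22 ± 0.41 on the log2 scale, with an unadjusted p of 0.0063 (edgeR). The C1q chain gene C1qc was at −0.19 ± 0.09, the receptor gene C3ar1 at 0.01 ± 0.05 and the integrin gene Itgb2 at 0.02 ± 0.05. The alternative pathway gene Cfb, untested, had 0 counts in NG and 2, 6 and 8 counts with CD200Fc.

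Microglial identity genes had no call after adjustment. The 20 tested genes of the homeostatic list had a median log2 fold change of −0.034, with 14 below 0 and 4 at an unadjusted p under 0.05, all lower, against 5.98% in either direction over all genes. Of the 20, 11 excluded a 25% change, 13 excluded 1.5-fold and 17 excluded 2-fold. Their summed level was 3443 to 3751 CPM in NG and 3349 to 3378 CPM with CD200Fc, without overlap, which other lists showed too, as given below. Csf1r, the receptor that microglia need for survival, stood at 913, 886 and 912 CPM in NG and at 915, 902 and 870 CPM with CD200Fc, with limits of −0.12 and 0.09 on the log2 scale. P2ry6, the UDP receptor of microglial phagocytosis, was at −0.16 ± 0.07. Cx3cr1, the fractalkine receptor, was weakly expressed in this line, at 3.86, 3.87 and 2.40 CPM in NG and 2.06, 2.04 and 2.70 CPM with CD200Fc. Its groups overlapped in 1 library each, and the log2 fold change was −0.57 ± 0.26.

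The disease-associated microglia list (24 tested) had a median of −0.060, with 1 member higher and 6 lower at an unadjusted p under 0.05, against 5.98% over all genes; all 24 excluded 1.5-fold. Its summed level was 26083 to 27330 CPM in NG and 25581 to 25752 CPM with CD200Fc, without overlap. Summed levels without overlap were not particular to microglial lists. The cholesterol list was higher with CD200Fc, at 4706 to 4789 CPM against 4430 to 4630 CPM in NG. The endothelium and mural cell markers and the lymphocyte markers were also higher. The RNA quality and nuclear RNA list was lower, at 19688 to 21428 CPM against 21588.5 to 23214 CPM in NG, as were the microglia and macrophage markers. Cst3, cystatin C, stood at 494, 441 and 438 CPM in NG and 376, 353 and 429 CPM with CD200Fc, a log2 fold change of −0.25 ± 0.08 without overlap. Tyrobp, the signalling adaptor of TREM2, was at −0.25 ± 0.11, Trem2 itself at −0.15 ± 0.06 and the fatty acid binding protein gene Fabp5 at −0.18 ± 0.08. The exon length of Tyrobp is 667 bases, and short genes had lower estimates over all genes, as described below. The lysosomal genes Cd68 and Ctsb were at −0.11 ± 0.05 and −0.06 ± 0.05. The phagocytosis and lysosome list had a median of −0.030 with 32 of 33 excluding 1.5-fold. The exception was the integrin gene Itgb3, at 0.593, 0.313 and 0.162 CPM in NG and 0.635, 0.863 and 0.714 CPM with CD200Fc, a log2 fold change of 1.06 ± 0.48 (unadjusted p = 0.035, edgeR) without overlap. The alternative activation list had 0 of 19 with an unadjusted p under 0.05 and a median of 0.026.

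Metabolic genes included the list with the median farthest from 0 among the 23 functional lists. The 44 nuclear genes of oxidative phosphorylation had a median log2 fold change of −0.14, against −0.00033 for all genes tested. Of these, 42 were below 0 and none passed after adjustment. An unadjusted p under 0.05 was seen for 9, all lower, against 5.98% in either direction over all genes, and 10 were lower without overlap, against 6.16%. Leaving out 1 library at a time moved the median between −0.078 (without NG+CD200Fc replicate 2) and −0.20 (without NG+CD200Fc replicate 3). Even so 43 of the 44 excluded 1.5-fold. Cox5a, a subunit of cytochrome c oxidase, stood at 193, 175 and 183 CPM in NG and at 162, 158 and 158 CPM with CD200Fc, a log2 fold change of −0.20 ± 0.06. Ndufa4 and Ndufb10, subunits of respiratory complexes, were both at −0.23 ± 0.08, while Atp5b, the beta subunit of ATP synthase, was at −0.06 ± 0.05. The genes of this list are short, with a median exon length of 1918 bases, and estimates varied with exon length over all genes, as described below. The median after an incomplete removal of the length trend is given there.

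In the glycolysis, lactate and glucose sensing list all 27 tested genes excluded 1.5-fold, 26 excluded a 25% change and the median was −0.027. Txnip, the glucose-induced inhibitor of thioredoxin, stood at 111, 96.8 and 97.9 CPM in NG and at 95.7, 95.9 and 103 CPM with CD200Fc. The highest value was NG replicate 1 and the rest interleaved, with an interval of 0.88-fold to 1.05-fold. Gapdh was at −0.09 ± 0.06, the lactate transporter gene Slc16a1 at −0.13 ± 0.06 and the enolase gene Eno2 at 0.12 ± 0.07.

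Growth and lipid genes had no call either. All 40 G2 and M phase genes excluded a 25% change, with a median of −0.0089, and 36 of 40 S phase genes did so, with a median of −0.0014. Mki67, the proliferation marker, stood at 1051, 1152 and 1082 CPM in NG and at 1161, 1275 and 1084 CPM with CD200Fc, with overlap and a log2 fold change of 0.10 ± 0.06. The topoisomerase gene Top2a was at 0.02 ± 0.05, the sliding clamp gene Pcna at −0.16 ± 0.06 and the thymidine kinase gene Tk1 at −0.16 ± 0.06. Of 34 ribosome biogenesis genes 33 excluded a 25% change, with nucleolin (Ncl) at −0.08 ± 0.05 and the assembly factor Rrs1 at −0.13 ± 0.06. The 33 tested cholesterol genes had a median of 0.025, the master regulator Srebf2 was at 0.12 ± 0.05, and fatty acid synthase, Fasn, at 0.12 ± 0.06. The 39 stress response genes had a median of −0.062 and all excluded 1.5-fold, with the glutathione synthesis gene Gclm at −0.18 ± 0.08. Over all 23 functional lists together, 613 genes were tested and 0 passed; 47 (7.67%) had an unadjusted p under 0.05, against 5.98% of all genes and 7.05% of genes of at least 10 CPM. Of the 613, 467 (76.2%) excluded a 25% change, 557 (90.9%) excluded 1.5-fold and 582 (94.9%) excluded 2-fold.

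The smallest p-value in the comparison belonged to Atp5k, a small subunit of the mitochondrial ATP synthase (ENSMUSG00000050856, chromosome 5, 108433244 to 108434448, minus strand). It stood at 42.5, 41.4 and 42.6 CPM in NG and at 31.4, 31.7 and 33.4 CPM with CD200Fc. The groups were tight and well apart, with a log2 fold change of −0.39 ± 0.08, an unadjusted p of 6.92e-05 and an adjusted p of 0.816 (edgeR). In the authors' deposited table it was also among those with the smallest FDR, 0.0751, with a log2 fold change of −0.39. Leaving out predicted genes and pseudogenes, the next smallest p-values were those of Mrps21, a mitochondrial ribosome protein gene (−0.31 ± 0.08), and Chrac1, a subunit of a chromatin remodelling complex (−0.35 ± 0.09). Atp5k and Mrps21 are short, with exon lengths of 616 and 739 bases, while that of Chrac1 is 2353 bases. Genes of 500 to under 1000 bases had a median log2 fold change of −0.096, as described below.

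Bcr, on chromosome 10 (75060592 to 75184921, plus strand), had the smallest p among higher genes named in this way. It stood at 21.8, 19.9 and 22.5 CPM in NG and 27.4, 30.7 and 23.7 CPM with CD200Fc, a log2 fold change of 0.35 ± 0.09 with an unadjusted p of 0.0008 (edgeR). The other 6 of the 10 genes with the smallest p so chosen were the Ras-like GTPase gene Rala at −0.29, the prefoldin gene Pfdn2 at −0.23, the translation repressor gene Eif4ebp1 at −0.23, the Golgi-to-ER transport gene Nbas at 0.27, the adaptor complex gene Ap5z1 at 0.23 and the phosphodiesterase gene Pde1b at 0.28. In all 10 the 3 libraries of one group lay on one side of the other 3, against 11.9% of all genes tested. The choice by small p favours such genes, so this count is no support for an effect. All 10 estimates were smaller than 1.5-fold.

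The rule for named genes took a mean of at least 1 CPM and left out predicted genes, pseudogenes and ribosomal RNA. By this rule, the 5 highest and 5 lowest estimates came from genes with low counts or wide intervals. Plekhh2 (chromosome 17, 84511895 to 84622138, plus strand) had the highest, 2.07 ± 0.94 on the log2 scale. It stood at 8.31, 7.51 and 37.4 CPM in NG and at 149, 7.96 and 66.1 CPM with CD200Fc. Values within each group differed by more than the groups did, and the interval ran from 0.94-fold to 18.7-fold. Zfp174, Stab2, Adamts4 and Peak1os, the other highest estimates, were between 0.84 and 0.91 and all had mean levels below 2 CPM.

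Of the lowest estimates, Klhl3, a ubiquitin ligase adaptor gene (chromosome 13, 58000228 to 58113592, minus strand), stood at 29.9, 29.9 and 19.3 CPM in NG and at 11.2, 11.1 and 9.53 CPM with CD200Fc. The groups were apart, and the log2 fold change was −1.32 ± 0.54 with an unadjusted p of 0.039 in the model of all 12 libraries (edgeR). Fitted on the 6 normal glucose libraries alone, Klhl3, Cbfa2t3 and Atp5k were among 9 genes that passed, all lower. Cbfa2t3, a transcriptional co-repressor gene, stood at 4.15, 4.77 and 3.33 CPM in NG and at 1.63, 1.49 and 1.37 CPM with CD200Fc, at −1.46 ± 0.94 in the model of 12. That model shares the spread over the 4 groups, and both genes varied widely in HG. The HG values were 9.65, 14.1 and 43.0 CPM for Klhl3 and 0.787, 1.17 and 11.3 CPM for Cbfa2t3. The endothelin-converting enzyme gene Ece2 was at −1.75 ± 0.87 and Cadps2 at −1.08 ± 0.99. Maneal stood at 1.53, 1.80 and 1.71 CPM in NG and 0.635, 0.863 and 0.839 CPM with CD200Fc, at −1.10 ± 0.34.

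At 100 CPM and more, 40 genes did not exclude 1.5-fold, and they were singled out after their values were seen. Of these, 19 have histone symbols and 10 are small RNAs, and 38 had an estimate below 0. Exon length was under 1000 bases for 25 of the 40, and such short genes had lower estimates over all genes, as described below. The groups did not overlap in 17 of the 40, 16 lower and 1 higher, against 11.9% of all genes tested. A choice by interval limits also favours estimates far from 0. The 1 higher gene, the ribosomal RNA gene CT010467.1, stood at 540, 537 and 525 CPM in NG and 552, 595 and 579 CPM with CD200Fc. In HG replicate 2 it stood at 14658 CPM, which enters the shared spread and so its interval. Replication-dependent histone genes are near-identical copies, so their counts are uncertain. Rn7sk, the RNA that sequesters the elongation factor P-TEFb, stood at 5121, 3623 and 3594 CPM in NG and at 2319, 2320 and 3366 CPM with CD200Fc. Its NG values were all higher, with a log2 fold change of −0.62 ± 0.31 (unadjusted p = 0.080, edgeR). Zbtb10, a zinc finger gene, stood at 149, 149 and 112 CPM in NG and at 87.1, 87.0 and 62.8 CPM with CD200Fc. This was −0.79 ± 0.39 on the log2 scale with limits of −1.68 and 0.094, so its interval does not exclude a level 2-fold below NG. The long nuclear RNA Malat1 was at 0.01 ± 0.06.

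A further 36305 genes in the count table were below the filter and not tested; 22269 of them had 0 counts in all 6 libraries. Of the rest, 106 had 0 counts in NG and at least 10 over the 3 NG+CD200Fc libraries, and 71 had the reverse. All 3 libraries of the group with counts held at least 1 count for 45 of the 106 and 24 of the 71, while for 21 and 16 genes the counts came from 1 library. A count of 0 allows a level of up to 0.0406 CPM over the 3 NG libraries and 0.0364 CPM over the 3 NG+CD200Fc libraries at 3 counts, which covers counting error only.

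Estimates varied with the exon length of the gene. Across 14262 genes of at least 1 CPM with a length, the median log2 fold change was −0.16 for exon lengths under 500 bases and −0.096 from 500 to under 1000 bases. It was 0.018 from 4000 to under 8000 bases and 0.045 at 8000 bases and more. Across genes, which are not independent replicates, Spearman's rank correlation was 0.29. Of genes under 500 bases with an unadjusted p under 0.05, 5 were higher and 84 lower, and of those of 8000 bases and more 126 were higher and 9 lower.

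The same contrast was seen library by library. The median deviation of genes under 1000 bases minus that of genes of at least 4000 bases was 0.14, 0.041 and 0.063 in the NG libraries and −0.046, −0.15 and 0.021 in the NG+CD200Fc libraries. The groups did not overlap, NG+CD200Fc replicate 3 lay closest to NG, and the exact two-sided permutation p was 0.1, the smallest that 3 against 3 can give. When the length trend was removed from each library, an alternative added after seeing the data, 0 genes passed and 920 had an unadjusted p under 0.05 (edgeR). The median of the oxidative phosphorylation list was then −0.097 in place of −0.14. The removal was not complete: Spearman's correlation was still 0.068. The median was −0.055 under 500 bases and −0.032 from 1000 to under 2000 bases. The cause of the relation with length was not tested.

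**Figure D4:**
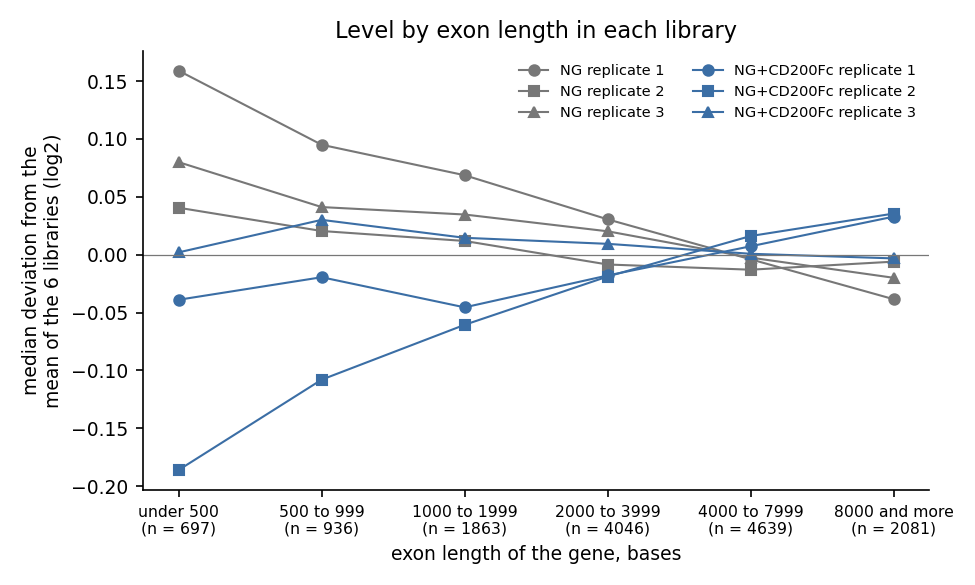
Median deviation of genes from their mean over the 6 libraries (y axis, log2) by exon length (x axis, number of genes in brackets), with a line for each library, NG in grey and NG+CD200Fc in blue. For genes under 500 bases the 3 NG libraries lie between 0.041 and 0.16 and the 3 NG+CD200Fc libraries between −0.19 and 0.0020.

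With the same number of libraries, CD200Fc in high glucose gave many calls. The comparison of high glucose with CD200Fc against high glucose shares no library with the one in normal glucose. The median standard error per gene was 0.153 on the log2 scale in normal and 0.154 in high glucose. The model gives the 4 groups a shared spread for each gene, so near-equal standard errors are built in and do not compare the precision. In high glucose 3408 genes passed (17.8% of those tested, 9.46% higher with 1815 genes and 8.3% lower with 1593; edgeR), and the median absolute log2 fold change over all genes tested was 0.21 against 0.11. The test of the difference between the effects, high minus normal glucose, called 1381 genes (7.2%). Of these 694 (3.62% of those tested) had a higher and 687 (3.58%) a lower effect in high glucose.

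The genes called in high glucose had small estimates in normal glucose. Over the 3408 genes the median absolute log2 fold change was 0.35 in high and 0.068 in normal glucose. Over all genes tested it was 0.11 in normal glucose, but that includes genes under 1 CPM, whose median was 0.38. Of the 3408, 3300 had a mean of at least 1 CPM. The normal glucose median was 0.084 over all genes of at least 1 CPM and 0.063 over those of at least 10 CPM. The 3408 were chosen by their high glucose values, which favours large estimates there. For 3091 of them the normal glucose interval excluded the high glucose estimate, a count that leaves out the error of that estimate. The test of the difference, which includes it, was passed by 1321 of them. The estimates had the same sign for 2072 (60.8%). Among the 265 genes called in high glucose with at least a 2-fold change, the same sign was seen for 120, the normal glucose interval excluded the high glucose estimate for 250, and 130 passed the test of the difference. Across the 14269 genes of at least 1 CPM, Pearson's r between both sets of estimates was 0.064, as a description across genes.

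**Figure D5:**
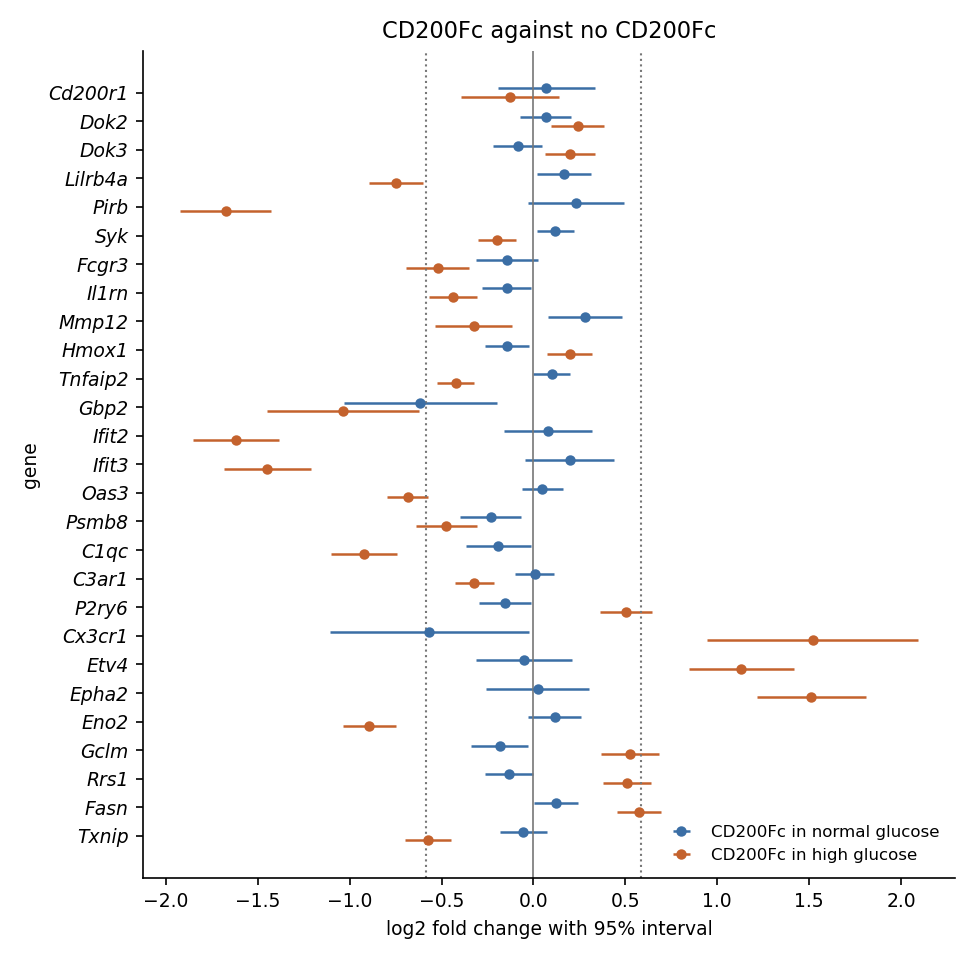
Log2 fold change with 95% interval (x axis) of 27 genes for CD200Fc against no CD200Fc in normal glucose (blue) and in high glucose (orange); dotted lines mark 1.5-fold in each direction. In normal glucose the intervals lie inside those lines except for Gbp2 and Cx3cr1, while in high glucose Ifit2 stands at −1.62 and Epha2 at 1.51. The genes drawn are a part of those named in the text. C2 and Itgb3, not drawn, had normal glucose limits reaching 4.19-fold and 4.09-fold.

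Gene groups differed in this respect. Of the 47 interferon-stimulated genes, 42 fell in high glucose, against 8.3% of all genes, and 36 passed the test of the difference, against 7.2%; the median log2 fold change was −0.81 in high glucose and −0.019 in normal glucose. Ifit2 was at −1.62 in high glucose, outside its normal glucose limits of −0.16 and 0.32, and the same held for Ifit3 at −1.45 and Oas3 at −0.68. Of 34 ribosome biogenesis genes, 27 rose in high glucose, against 9.46% of all genes, and 21 passed the test of the difference, against 7.2%. Of the 31 ERK feedback and immediate early genes, 12 rose and 2 fell in high glucose, with Etv4 at 1.13 and Epha2 at 1.51, and 11 passed the test of the difference, against the same 9.46%, 8.3% and 7.2% of all genes. The 10 genes of the CD200 receptor and its adaptors had 6 calls in high glucose, against 17.8% of all genes. None of the 10 passed the test of the difference, against 7.2% of all genes, a share at which a list of this size can hold no call. For the oxidative phosphorylation list 6 of 44 passed in high glucose, against 17.8% of all genes, the median was −0.11, and 0 passed the test of the difference, against 7.2%.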

How the data were processed

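RNA was depleted of ribosomal RNA and sequenced as paired reads of 150 bases, per the labels' protocols. The authors deposited whole-number counts per gene for 12 libraries; STAR and featureCounts are named in the submitters' processing notes, with GRCm38 as the build, and the strand setting is not given in the sources used here. The authors also deposited a table of their own comparisons with log2 fold changes and p-values, which was only set beside the results. Of 55774 lines in the count table, 287 repeated a gene ID with the same values and were dropped; 99.5% of the 55487 IDs are in GENCODE M21, which gave coordinates and exon lengths.

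Counts were fitted with edgeR 4.0.16 (R 4.3.3; TMM, filterByExpr, robust quasi-likelihood, 4 group means over 12 libraries), with Benjamini-Hochberg adjustment over the 19182 genes tested and a threshold of 0.05. The 95% interval of each log2 fold change used SE = |log2 fold change| / √F and the model's total degrees of freedom (median 26.6), so it assumes that the 4 groups share their spread. The common biological coefficient of variation was 0.0908. The scripts were tested on simulated data. No pair of replicates matched within sampling noise (chi-square over degrees of freedom 3.63 to 13.2).

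Of 730 names in 32 lists, 729 were found. The members of the lists, the rule for named genes (the 10 smallest p-values and the 5 highest and 5 lowest estimates among genes of at least 1 CPM without predicted genes, pseudogenes and ribosomal RNA, the CD200 receptor list, Txnip, in each other list up to 3 genes with the smallest p and up to 2 with the highest level, and up to 10 genes in each direction of the test of the difference) and the comparison were chosen with earlier results of these data known. Alternatives were DESeq2 1.42.0, limma 3.58.1 (voom), other scalings and filters, the 6 libraries alone, a replicate block and each library left out.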

Additional observations from a re-analysis of the deposited data

Results flagged for a closer look

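The effect of CD200Fc differed between high and normal glucose for 1381 genes by the interaction test (edgeR, adjusted p under 0.05), and each value below is the log2 effect in high minus that in normal glucose of a gene named above that passed this test. Among receptors and their signalling genes the differences were −0.91 for Lilrb4a, −1.91 for Pirb, −0.32 for Syk, −0.38 for Fcgr3, −0.33 for Fcer1g and 0.32 for Trem2. Interferon genes gave −1.70 for Ifit2, −1.65 for Ifit3, −0.73 for Oas3 and −0.26 for Irf8. Complement genes gave −1.93 for C2, −0.73 for C1qc and −0.33 for C3ar1.

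Inflammatory genes gave −0.29 for Il1rn, −0.60 for Mmp12, −0.25 for Cybb, −0.52 for Tnfaip2 and 0.34 for Hmox1. The microglial receptor genes Cx3cr1 and P2ry6 gave 2.08 and 0.66. ERK feedback and immediate early genes gave 1.18 for Etv4, 1.49 for Epha2, 0.43 for Ier5 and 0.40 for Etv5.

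Growth, stress and metabolic genes gave 0.43 for Ncl, 0.64 for Rrs1, 0.32 for Tk1, 0.32 for Mki67, 0.71 for Gclm, 0.45 for Fasn and 0.39 for Slc16a1, and on the other side −1.01 for Eno2 and −0.52 for Txnip. Nbas, Ap5z1 and Pde1b, which were among the smallest p-values in normal glucose, gave −0.39, −0.36 and −0.43. They were chosen by their normal glucose values, which enter the difference with a minus sign, so the choice favours negative differences. Their high glucose effects were −0.12, −0.12 and −0.15, and none passed (adjusted p 0.31, 0.21 and 0.22, edgeR). The same kind of choice applies to genes named for the smallest p in their list. Malat1 gave −0.57, and the integrin gene Itgb3 −2.53.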

How the results depend on the processing

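Of 16 alternatives, 12 gave 0 passing genes for CD200Fc in normal glucose, among them DESeq2, both other scalings, a stricter filter and each of the 6 normal glucose libraries left out in turn; of the high glucose libraries, replicate 2 of HG was left out and the other 5 were not. The exceptions were 21 genes with no filter on low counts, 9 when only the 6 normal glucose libraries were fitted, and 1 (Atp5k) with limma voom. The 21 were mostly not genes that the main filter removes: 19 were also tested in the main model. Of the 21, 18 were lower and 2 higher with CD200Fc, and highly counted genes such as Cst3 (lower) and mt-Nd5 (higher) were among them. The count of 0 for such genes therefore depends on the filter used in the fit. The count at an unadjusted p under 0.05, 1147, became 2004 with no filter and 2480 with limma voom. Leaving out 1 normal glucose library gave 684 to 2193: 684 without NG replicate 1, 707 without NG+CD200Fc replicate 2 and 2193 without NG+CD200Fc replicate 3. Deviations of same-numbered NG and NG+CD200Fc libraries correlated at −0.030, 0.17 and 0.025, and those of other numbers at −0.20 to 0.18. Over all 4 groups the same-numbered values ran from −0.070 to 0.21. With 3 libraries a group these values cannot decide whether the replicate numbers pair the libraries. A fit with the replicate number as a block passed 2 genes, Gm22009 and Gm25395, with 1542 at an unadjusted p under 0.05 (edgeR). It passed 3842 genes in high glucose and 1723 in the test of the difference. The number of genes of at least 1 CPM whose interval excludes 1.5-fold, 10911, ranged from 10213 to 11105 over all 16 alternatives, for 2-fold from 12848 to 13495, and the median absolute log2 fold change from 0.075 to 0.11. Removing the exon length trend and leaving out HG replicate 2 were added after seeing the data; both gave 0 passing genes, with 920 and 1409 at an unadjusted p under 0.05. Of 1504 recomputed values of 94 named genes, 7 passed and none turned its direction past the threshold. With 3 libraries a group, changes under 2-fold are mostly not excluded below 1 CPM.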
